A study of Homo sapiens with 6 samples.

Results

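Collagen chain genes encode the alpha chains that wind into the triple helices of the collagens. They were taken as every row of the gene count table whose Ensembl identifier carries a GENCODE symbol made of COL, a type number, A and a chain number. The rule found 43 genes among 20169 rows. COL26A1 was not analysed here.

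RNA was measured in HEK293T cells, an established human embryonic kidney line that carries the SV40 large T antigen. Both groups were monoclonal landing pad lines, in which a fixed genomic site receives a single reporter. The first carried the CAG promoter, a strong synthetic promoter with cytomegalovirus enhancer and chicken beta-actin parts, and the other carried the PGK promoter of phosphoglycerate kinase 1. Each had 3 libraries, made from polyadenylated RNA with a directional kit, from cells kept in DMEM with fetal bovine serum. Each promoter stands for a single line in the labels, and the effects of promoter and of clone cannot be told apart. They do not say whether the 3 libraries came from separate cultures, so the p-values measure only the spread between these libraries, which may be technical.

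Collagens fall into classes by the structures they build. Fibrillar collagens form banded fibrils, type IV collagens form the sheet of basement membranes, and beaded filament collagens form microfibrils. The fibril-associated collagens with interrupted helices (FACIT) sit on fibrils, the transmembrane collagens span the plasma membrane, and the multiplexins carry sugar chains and shed antiangiogenic fragments. A chain is secreted only after it has found its partner chains, so the ratio of partner chains matters as well as the level of each.

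The libraries held 22450538, 23315828 and 23442542 counts in the CAG line and 21896246, 22528774 and 22889708 counts in the PGK line. Levels are CPM, a library's counts scaled to a common total, on library sizes adjusted by the trimmed mean of M values (TMM), and a gene was called where the quasi-likelihood test of edgeR, adjusted by Benjamini-Hochberg over all 13103 genes kept, gave a p under 0.05. The 2 lines differed across the transcriptome: 62.0% of all tested genes were called, 31.6% higher and 30.4% lower in CAG. Between libraries of 1 line the chi-square per degree of freedom ran from 3.42 to 9.82, and between lines from 50.8 to 61.9. In bulk RNA, fewer cells that make a transcript and less transcript per cell cannot be told apart.

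Of the 43 collagen genes, 28 passed the filter on low counts, 15 did not, and 3 of those had no count in any library. Among the 28, 15 were called higher in CAG, 5 lower and 8 neither way. That is 53.6% of tested collagen genes higher and 17.9% lower, beside 31.6% and 30.4% of all tested genes. COL4A3, COL4A4, COL12A1 and COL21A1 met the count cutoff in all 3 libraries of CAG alone and COL20A1 in those of PGK alone, so the tested members are not a neutral sample of the family. The median log2 fold change of CAG over PGK was 0.23 over the 28 genes and -0.00 over all tested genes, whose quartiles were -0.24 and 0.30. At least 2-fold higher in CAG were 6 collagen genes and at least 2-fold lower were 2, where 5.73% and 2.88% of all tested genes passed those rules. Over all 43 members, the CAG libraries lay wholly above the PGK libraries for 20 and wholly below for 6, and overlapped for 17. Of these, 5, 1 and 9 in turn were genes outside the test. Among all tested genes, 33.5% lay wholly above and 32.0% wholly below.

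**Figure D1:**
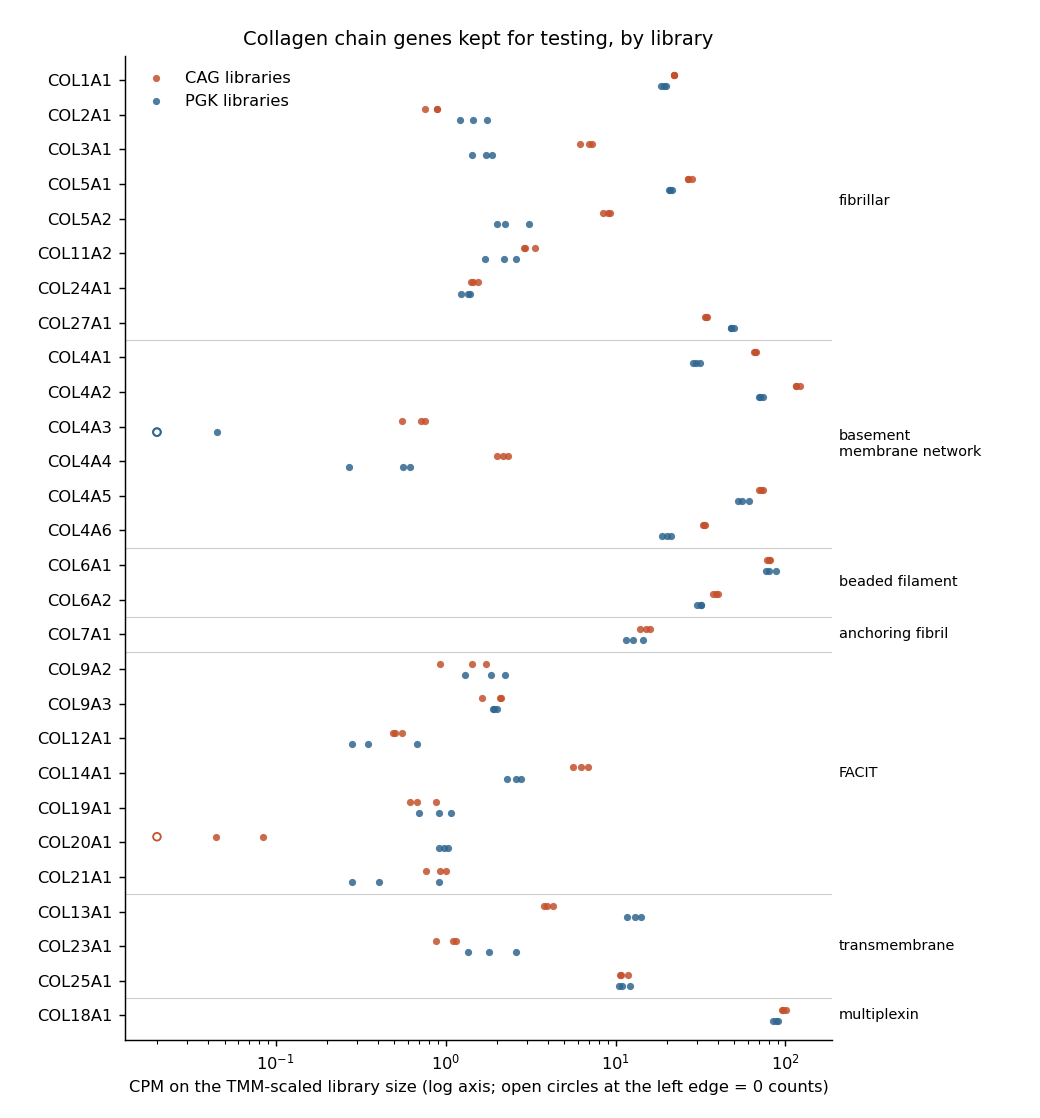
Level of each of the 28 tested collagen genes in each library, as CPM on a log axis, with CAG libraries in the upper row of points and PGK libraries in the lower row of each gene. Open circles stand for 0 counts. All 6 type IV genes have their CAG libraries to the right of their PGK libraries, while COL13A1, COL20A1, COL23A1, COL27A1 and COL2A1 have them to the left.

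Summed over all 43 genes, collagen reads made up 657 ± 4.20 CPM in CAG and 525 ± 12.6 CPM in PGK (SD, n = 3 each), a ratio of 1.252. The type IV genes carried the larger part of that gap, with 291 ± 1.18 CPM in CAG and 178 ± 8.27 CPM in PGK. They made up 44.5, 44.1 and 44.3% of collagen CPM in the CAG libraries, against 33.0, 35.9 and 33.0% in the PGK libraries. Most of the type IV gap lay in COL4A1 and COL4A2, side by side on chromosome 13. COL4A1 had a mean of 66.0 CPM in CAG and 29.9 CPM in PGK, and COL4A2 of 117.1 and 71.5 CPM. The tested neighbours of both genes were also higher in CAG, as given below. The fibrillar sum was 104.6 ± 0.97 CPM in CAG and 97.9 ± 1.697 CPM in PGK, and the transmembrane sum was 16.2 ± 0.66 CPM in CAG and 26.1 ± 1.44 CPM in PGK. Class sums weigh long and abundant transcripts most and were not tested.

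Per kilobase of transcript, the only scale on which genes are ranked here, 6 genes led in CAG. These were COL6A1 at 18.9, COL4A2 at 18.04, COL18A1 at 14.8, COL6A2 at 11.2, COL4A5 at 11.1 and COL4A1 at 9.97 CPM per kilobase. In PGK the leaders were COL6A1 at 19.2, COL18A1 at 13.3, COL4A2 at 11.01, COL6A2 at 9.05, COL4A5 at 8.70 and COL27A1 at 6.22 CPM per kilobase. Some neighbours in these orders lay within their spread, such as COL6A2 at 11.2 ± 0.42 beside COL4A5 at 11.1 ± 0.32 CPM per kilobase in CAG. Both lines therefore had a collagen profile led by type VI, type IV and type XVIII chains, and COL1A2 was not detected in either.

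All 6 type IV genes were called higher in CAG, beside 31.6% of all tested genes, with a median log2 fold change of 0.94. COL4A3 and COL4A4 met the count cutoff in all 3 libraries of CAG alone, so the filter bears on that count and median. All 48 neighbours of COL4A1 and all 47 of COL4A2 also had a positive log2 fold change. The 6 type IV genes lie in 3 head-to-head pairs, each pair read away from a short shared stretch on chromosome 13, 2 or X. COL4A1 and COL4A2 chains form the type IV trimer of nearly all basement membranes. The chains of COL4A3 and COL4A4 join COL4A5 in the mature glomerular membrane, and COL4A5 and COL4A6 chains join in epithelial and smooth muscle membranes.

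The stretches between the paired starts are shown because both genes of each pair were higher in CAG. RefSeq on GRCh38.p14 puts the starts of COL4A1 and COL4A2 127 bases apart, those of COL4A6 and COL4A5 380 bases apart and those of COL4A4 and COL4A3 419 bases apart. The excerpts below are 30 bases of the plus strand, 5′ to 3′, from chr13:110307177-110307206, chr2:227164400-227164429 and chrX:108439588-108439617, with motif matches in capitals.
COL4A1/COL4A2: ccCCAATttgttggcgctgccCCCTCCCcc
COL4A4/COL4A3: gatccgcgcccacctgcccctcaggcgccc
COL4A6/COL4A5: acaCCAATgagATTGGaactgagcctagaa
The capitals mark CCAAT, its reverse complement ATTGG, and CCCTCCC, known as the CTC box of the COL4A1 and COL4A2 promoter. The 126 bases between the COL4A1 and COL4A2 starts, a part of what their promoter windows share, held 1 CCAAT, 1 CCCTCCC and 1 GC box (GGGCGG). They held no TATAAA. The 121 common bases of COL4A6 and COL4A5 held 2 CCAAT matches, and the 82 common bases of COL4A4 and COL4A3 held none of the 4 motifs. No match overlapped another in the printed excerpts. Searched on both strands of all 35116 RefSeq windows, from 250 bases before to 50 after a start, CCAAT was present in 34.6%, GGGCGG in 44.95%, CCCTCCC in 26.6% and TATAAA in 11.5%. Of the 43 windows that matched 31 collagen genes, 32.6% held CCAAT, 55.8% GGGCGG, 48.8% CCCTCCC and 18.6% TATAAA. A match describes letters and not a bound factor.

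COL4A1, the most widely used type IV chain gene together with COL4A2, had 67.2, 65.9 and 64.9 CPM in the CAG libraries, against 29.7, 31.3 and 28.7 CPM in the PGK libraries. The lines did not overlap, and the log2 fold change was 1.14 with a standard error of 0.06 (edgeR, adjusted p = 6.15e-12). COL4A2 had 115.3, 114.6 and 121.5 CPM in CAG, against 70.9, 73.9 and 69.7 CPM in PGK, a log2 fold change of 0.71 with a standard error of 0.05 (edgeR, adjusted p = 8.93e-10). Both genes stood in a stretch of chromosome 13 that was higher throughout. Among the up to 25 tested genes on each side, all 48 neighbours of COL4A1 and all 47 of COL4A2 had a positive log2 fold change, with medians of 0.92 for each. Relative to that median COL4A1 was 0.23 above and COL4A2 was -0.21, so the direction of COL4A2 turns when its neighbourhood is taken as the baseline. The part of the neighbourhood in these differences was not tested. COL4A2 shares exonic bases with the antisense genes COL4A2-AS1 and COL4A2-AS2. Whether reads were counted by strand is not stated, so its counts are uncertain to that extent. The same holds for COL4A3, COL9A3 and COL19A1, which share exonic bases with AC097662.1, TCFL5 and LMBRD1 on the other strand.

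The balance of the COL4A1 and COL4A2 chains was read from their ratio. Per length, the ratio of COL4A1 to COL4A2 was 0.572, 0.564 and 0.524 in CAG, against 0.411, 0.416 and 0.404 in PGK. The CAG ratios lay above all PGK ratios, and the exact permutation test, two-sided, gave p = 0.1, the smallest that 3 against 3 libraries allow. Over the 5 chain ratios tested the adjusted exact p was 0.125. With length taken as the union of all exons the mean ratios were 0.738 in CAG and 0.547 in PGK. The choice of length scales both lines alike and bears only on the level of the ratio.

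COL4A3, the gene of the Goodpasture antigen chain, had 17, 13 and 17 counts in the CAG libraries, against 0, 1 and 0 counts in the PGK libraries. In total that is 47 against 1, a ratio of depth-scaled counts of 44.7 with a 95% interval of 7.64 to 1802 that covers counting error only. The fitted log2 fold change was 5.04 with a standard error of 0.68 (edgeR, adjusted p = 3.53e-06). It was 6.95 without PGK replicate 2, the library with the single count. COL4A4, its divergent partner, had 2.17, 2.33 and 2.01 CPM in CAG, against 0.559, 0.270 and 0.613 CPM in PGK, a log2 fold change of 2.16 with a standard error of 0.26 (edgeR, adjusted p = 8.52e-07). This pair was scarce in both lines. Its neighbours on chromosome 2 had a median log2 fold change of -0.01 around COL4A3 and -0.00 around COL4A4, so these differences stood out from the surrounding genes.

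COL4A5, the gene mutated in X-linked Alport syndrome, had 72.1, 74.0 and 69.9 CPM in CAG, against 55.7, 61.2 and 52.3 CPM in PGK. Its log2 fold change was 0.35 with a standard error of 0.06 (edgeR, adjusted p = 4.49e-05), beside a neighbourhood median of 0.28 on the X chromosome. COL4A6 had 32.9, 33.3 and 33.6 CPM in CAG, against 21.2, 19.96 and 18.9 CPM in PGK, a log2 fold change of 0.73 with a standard error of 0.07 (edgeR, adjusted p = 2.06e-08) beside a neighbourhood median of 0.30. Neither gene overlapped between lines. The excess over the neighbourhood was 0.07 for COL4A5 and 0.43 for COL4A6, and the part of the neighbourhood was not tested. The ratio of COL4A6 to COL4A5 per length was 0.444 ± 0.016 in CAG and 0.342 ± 0.026 in PGK (SD, n = 3 each; exact permutation p = 0.1, the smallest possible, adjusted 0.125).

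**Figure D2:**
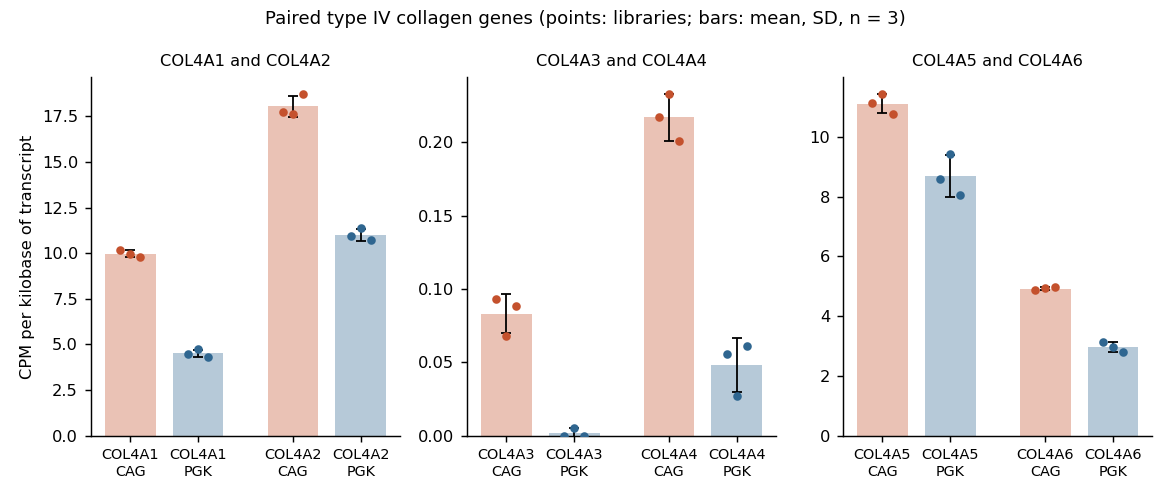
Level of the 3 divergent type IV pairs as CPM per kilobase of transcript, with a panel and a scale of its own for each pair. Bars are means and whiskers SD over 3 libraries, points are libraries, and CAG stands left of PGK for each gene. COL4A1 was at 9.97 in CAG and 4.52 in PGK, and COL4A3 and COL4A4 were the least abundant pair.

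Fibrillar collagens were mixed in direction. Of 11 members, 8 were tested, 5 were higher in CAG, 2 were lower and COL24A1 was not called, with a median log2 fold change of 0.29. That is 62.5% of the tested ones higher and 25% lower, beside 31.6% and 30.4% of all tested genes. The largest differences among the tested ones were in COL3A1 and COL5A2, which lie side by side and tail to tail on chromosome 2. COL3A1, whose chain forms the type III fibrils of distensible tissues, had 6.16, 7.29 and 7.01 CPM in CAG, against 1.72, 1.44 and 1.88 CPM in PGK. Its log2 fold change was 2.02 with a standard error of 0.15 (edgeR, adjusted p = 1.21e-09). COL5A2, a type V chain that helps start fibrils, had 8.47, 9.28 and 9.06 CPM in CAG, against 2.24, 3.10 and 2.02 CPM in PGK, a log2 fold change of 1.87 with a standard error of 0.14 (edgeR, adjusted p = 1.36e-09). For both genes every CAG library exceeded every PGK library, and their neighbourhood median was -0.00. Their ratio per length overlapped between lines, at 0.974 ± 0.039 in CAG and 0.924 ± 0.305 in PGK (SD, n = 3 each; exact permutation p = 0.8).

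COL5A1, the main partner chain of COL5A2, differed less. It had 26.5, 26.9 and 28.2 CPM in CAG, against 20.8, 20.6 and 21.4 CPM in PGK, a log2 fold change of 0.38 with a standard error of 0.07 (edgeR, adjusted p = 6.18e-05). The ratio of COL5A2 to COL5A1 per length was 0.393 ± 0.017 in CAG and 0.140 ± 0.035 in PGK (SD, n = 3 each; exact permutation p = 0.1, the smallest possible, adjusted 0.125). The type V chains were therefore nearer to each other in level in CAG, without overlap between lines.

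COL1A1, the main chain of type I collagen, had 22.13, 22.08 and 21.98 CPM in CAG, against 19.2, 18.5 and 19.8 CPM in PGK. The log2 fold change of 0.20 with a standard error of 0.07 passed in edgeR (adjusted p = 0.0137) but not in DESeq2 (adjusted p = 0.0641). Its partner COL1A2 had 0 counts in all 6 libraries, and 3 counts would have been 0.126 to 0.140 CPM in a library. Type I collagen was thus represented by its COL1A1 chain in both lines.

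COL11A2, a type XI chain of cartilage fibrils, had 3.37, 2.92 and 2.89 CPM in CAG, against 2.61, 1.71 and 2.19 CPM in PGK, a log2 fold change of 0.50 with a standard error of 0.17 (edgeR, adjusted p = 0.0191). This call was lost without CAG replicate 1 (edgeR, adjusted p = 0.0841) and without PGK replicate 2 (0.0926), and under DESeq2 (0.0797). COL24A1 did not overlap between lines, at 1.47 ± 0.07 CPM in CAG and 1.32 ± 0.09 CPM in PGK, and was not called (log2 fold change 0.15, standard error 0.20; edgeR, adjusted p = 0.531).

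COL27A1 and COL2A1 were the tested fibrillar genes lower in CAG. COL27A1, a fibrillar chain of cartilage, had 34.4, 34.2 and 33.6 CPM in CAG, against 49.8, 48.1 and 47.6 CPM in PGK, a log2 fold change of -0.51 with a standard error of 0.06 (edgeR, adjusted p = 2.74e-07). COL2A1, the main cartilage collagen, had 0.887, 0.890 and 0.755 CPM in CAG, against 1.44, 1.21 and 1.75 CPM in PGK, a log2 fold change of -0.80 with a standard error of 0.24 (edgeR, adjusted p = 0.0068). The CAG libraries lay below all PGK libraries for both. COL2A1 was read from 59 counts in CAG and 98 in PGK.

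**Figure D3:**
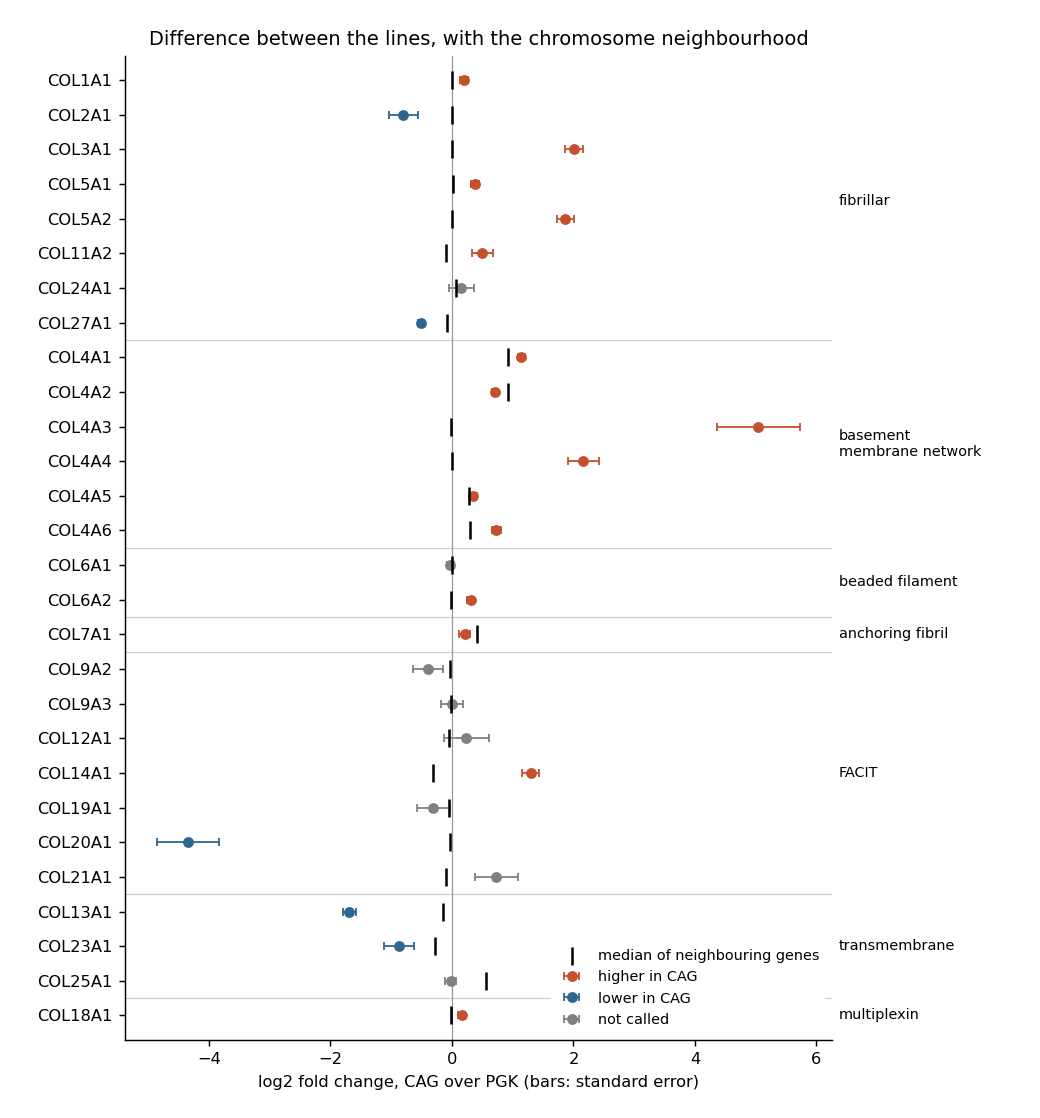
Log2 fold change of CAG over PGK for each tested collagen gene with its standard error, ordered by class, and the median of its tested chromosome neighbours as a black tick. COL4A1 at 1.14 and COL4A2 at 0.71 sit near a tick of 0.92, while COL3A1 at 2.02 and COL13A1 at -1.69 stand far from theirs.

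Of the beaded filament, anchoring fibril and multiplexin genes, 4 were tested, and their log2 fold changes lay between -0.02 and 0.31. COL6A1, whose chain is shared by all type VI trimers, had 80.1, 78.3 and 81.3 CPM in CAG, against 87.7, 76.5 and 79.7 CPM in PGK. The lines overlapped and COL6A1 was not called (log2 fold change -0.02, standard error 0.06; edgeR, adjusted p = 0.725). COL6A2, its usual partner, had 39.2, 40.1 and 37.3 CPM in CAG, against 32.0, 30.2 and 31.7 CPM in PGK, a log2 fold change of 0.31 with a standard error of 0.06 (edgeR, adjusted p = 2.01e-04). Their ratio per length, COL6A2 to COL6A1, was 0.596 ± 0.033 in CAG and 0.473 ± 0.023 in PGK (SD, n = 3 each; exact permutation p = 0.1, the smallest possible, adjusted 0.125). COL6A3, the third chain of the classical trimer, was near the detection limit in both lines at 0.415 ± 0.066 CPM in CAG and 0.0752 ± 0.026 CPM in PGK.

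COL18A1, a basement membrane multiplexin whose end yields endostatin, had 94.9, 97.3 and 100.8 CPM in CAG, against 90.3, 84.4 and 87.8 CPM in PGK. The log2 fold change was 0.16 with a standard error of 0.05 (edgeR, adjusted p = 0.0113), and the adjusted p was 0.0708 without CAG replicate 3. COL7A1, the anchoring fibril chain of skin, had 15.2, 15.8 and 13.9 CPM in CAG, against 14.5, 11.6 and 12.7 CPM in PGK. These overlapped, and the log2 fold change of 0.21 with a standard error of 0.09 passed narrowly in edgeR (adjusted p = 0.0453). Without CAG replicate 1, CAG replicate 2, PGK replicate 2 or PGK replicate 3 it did not pass (edgeR, adjusted p = 0.113, 0.164, 0.198 and 0.116), and its neighbourhood median was 0.42. COL18A1 shares exonic bases with SLC19A1 on the other strand, with the same uncertainty.

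Of 10 FACIT genes, 7 were tested, with COL14A1 higher and COL20A1 lower in CAG and 5 not called. That is 28.6% of the tested ones called, beside 62.0% of all tested genes. COL14A1, which binds fibril surfaces and limits their growth, had 5.63, 6.86 and 6.29 CPM in CAG, against 2.28, 2.79 and 2.59 CPM in PGK. Its log2 fold change was 1.29 with a standard error of 0.14 (edgeR, adjusted p = 1.64e-07), beside a neighbourhood median of -0.32. COL20A1, a little-studied FACIT, had 1, 2 and 0 counts in CAG, against 21, 23 and 21 counts in PGK. Totals of 3 and 65 give a ratio of depth-scaled counts, PGK over CAG, of 22.8 with a 95% interval of 7.46 to 113, for counting error only. The fitted log2 fold change was -4.34 with a standard error of 0.51 (edgeR, adjusted p = 6.30e-07), and it was -5.18 without CAG replicate 2.

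The other FACIT genes overlapped between lines. COL21A1 had 0.931, 0.763 and 1.007 CPM in CAG, against 0.279, 0.404 and 0.920 CPM in PGK. PGK replicate 3 was the high library, and without it the log2 fold change was 1.38 (edgeR, adjusted p = 0.00515), against 0.73 with all libraries (edgeR, adjusted p = 0.0785). COL9A2 was not called at -0.40 with a standard error of 0.25, COL9A3 at 0.00 with 0.18, COL12A1 at 0.24 with 0.37 and COL19A1 at -0.31 with 0.28. These 4 rested on 29 to 136 counts per line, and single libraries moved them. Leaving out 1 library gave -0.60 (without CAG replicate 1) to -0.18 (without CAG replicate 2) for COL9A2 and 0.01 (without PGK replicate 1) to 0.69 (without PGK replicate 2) for COL12A1. It gave -0.47 (without CAG replicate 3) to -0.16 (without PGK replicate 2) for COL19A1.

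Transmembrane collagens were the class with the lowest median, -0.87 over 3 tested genes. COL13A1, a neuromuscular junction and adhesion collagen, had 4.30, 3.81 and 3.94 CPM in CAG, against 14.2, 11.6 and 13.0 CPM in PGK. The lines lay far apart, with a log2 fold change of -1.69 and a standard error of 0.11 (edgeR, adjusted p = 2.10e-10). COL23A1 had 1.15, 1.10 and 0.881 CPM in CAG, against 2.61, 1.35 and 1.80 CPM in PGK, a log2 fold change of -0.87 with a standard error of 0.25 (edgeR, adjusted p = 0.00547), beside a neighbourhood median of -0.28. COL25A1, a brain collagen found in amyloid plaques, had 10.6, 11.8 and 10.7 CPM in CAG, against 10.9, 12.2 and 10.4 CPM in PGK. It overlapped and was not called at -0.02 with a standard error of 0.09, while its neighbours had a median of 0.56.

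The 15 genes outside the test had at most 15 counts in any library and a mean of at most 0.470 CPM. COL1A2, COL10A1 and COL22A1 had 0 counts throughout, which allows up to 0.140 CPM in a library. With no filter on low counts, COL8A1, COL6A6, COL6A3, COL15A1 and COL16A1 were called higher in CAG and COL11A1 lower, where 25.9% of all genes were higher and 25.2% lower. COL8A1, a short-chain collagen of vessel and corneal membranes, had 33 counts in CAG and 2 in PGK, a ratio of 15.7 with a 95% interval of 4.01 to 135. COL6A6 had 28 counts in CAG and 2 in PGK, a ratio of 13.3 (interval 3.36 to 115). COL11A1 had 1 count in CAG and 10 in PGK, a ratio of PGK over CAG of 10.5 with a counting interval from 1.496 to 456. COL5A3, COL6A5, COL8A2, COL9A1, COL17A1 and COL28A1 were not called. COL15A1 and COL16A1 share exonic bases with AL136084.3 and AC114488.2 on the other strand, so their counts are uncertain as well.

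The genes that modify and fold collagen chains had 3 of 20 higher in CAG (15%), 7 lower (35%) and a median log2 fold change of -0.09. Over all tested genes 31.6% were higher and 30.4% lower, and the median was -0.00. The genes named from this and the next lists were called in edgeR, with adjusted p of at most 0.0245, the value of COLGALT2, and their values are log2 fold changes. SERPINH1, the collagen chaperone HSP47, had 141 ± 7.55 CPM in CAG and 109.6 ± 6.48 CPM in PGK (SD, n = 3 each), a log2 fold change of 0.36. PLOD1, a lysyl hydroxylase, had 85.1 ± 3.12 CPM in CAG and 129 ± 3.38 CPM in PGK, a log2 fold change of -0.59 where its neighbours had a median of -0.58. COLGALT1, which adds galactose to hydroxylysine, was at -0.56 beside a neighbourhood median of -0.48. P3H2, a prolyl 3-hydroxylase, was at -0.50 beside a neighbourhood median of -0.67. COLGALT2 was at 0.29 and was not called without CAG replicate 2 or 3 or PGK replicate 1 or 3 (edgeR, adjusted p = 0.0812, 0.0652, 0.0740 and 0.0505) or in DESeq2 (adjusted p = 0.125). The count of 3 higher was 1 without CAG replicate 2, CAG replicate 3 or PGK replicate 3.

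The genes of extracellular processing and crosslinking had the lowest median of any list, -0.72, with 7 of 13 tested lower in CAG (53.8%, against 30.4% of all tested genes) and 3 higher (23.1%, against 31.6%). TLL1 and TLL2, which cleave procollagen ends, were at -1.72 and -1.18, beside neighbourhood medians of 0.40 and -0.31. ADAMTS2, the procollagen N-propeptidase, had 7.53 ± 0.76 CPM in CAG and 15.2 ± 0.52 CPM in PGK. Its log2 fold change was -1.01, beside a neighbourhood median of -0.31. LOX, LOXL1 and LOXL2, lysyl oxidases that crosslink fibrils, were at -0.87, -0.99 and -0.72, and PXDN, which crosslinks type IV collagen, was at -0.72; these 4 were chosen after their values were seen. PCOLCE2, an enhancer of procollagen C-proteinase, had 31.5 ± 1.09 CPM in CAG and 19.5 ± 0.56 CPM in PGK, a log2 fold change of 0.69. ADAMTS3 was at 0.24, beside a neighbourhood median of 0.46, and LOXL3 was at 0.32. The ADAMTS3 call was lost without PGK replicate 1 (edgeR, adjusted p = 0.0607) and the LOXL3 call without CAG replicate 1 (edgeR, adjusted p = 0.0622). In DESeq2 ADAMTS3 was not called either (adjusted p = 0.0517). Type IV chain genes were higher and PXDN was lower in the same libraries, and a link between them was not tested.

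Among the collagen receptors 2 of 7 tested were higher (28.6%, near the 31.6% of all tested genes) and 1 lower (14.3%, against 30.4%), with a median of 0.05. DDR2, a receptor tyrosine kinase for fibrillar collagen, had 42.0, 44.5 and 45.3 CPM in CAG, against 1.68, 1.98 and 2.06 CPM in PGK. The log2 fold change was 4.52 with a standard error of 0.10 (edgeR, adjusted p = 2.36e-17). DDR1, its paralogue, differed less, at 27.1 ± 0.52 CPM in CAG and 31.6 ± 1.42 CPM in PGK, a log2 fold change of -0.22. MRC2, which takes up collagen fragments, was at 0.68.

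Basement membrane partners had 7 of 17 higher and 7 lower (41.2% each, where all tested genes had 31.6% and 30.4%), with a median of -0.02. LAMA3, a laminin alpha chain, was at 1.16 and FREM1 at 1.85. LAMC3 was at -0.99, perlecan (HSPG2) at -0.77 beside a neighbourhood median of -0.63, and nidogen-2 (NID2) at -0.45. Fibril partners had 4 of 11 higher and 4 lower (36.4% each, near the 31.6% and 30.4% of all tested genes), with a median of -0.01. SPARC, which binds collagen, was at 1.27, LUM at 1.91 and TNC at 0.69, while TNXB was at -0.59, FBLN2 at -0.55 and FBN1 at -0.29. The TNXB call was lost without CAG replicate 1, CAG replicate 3 or PGK replicate 3 (edgeR, adjusted p = 0.0513, 0.0713 and 0.0898) and in DESeq2 (adjusted p = 0.104), and the count of lower genes was 2 without CAG replicate 1 or PGK replicate 3.

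Collagen-degrading proteases and their inhibitors had 3 of 10 tested higher (30%) and 4 lower (40%), beside the 31.6% and 30.4% of all tested genes, with a median of -0.13. MMP14, the membrane protease that cleaves fibrillar collagen, had 1.15 ± 0.17 CPM in CAG and 4.15 ± 0.46 CPM in PGK, a log2 fold change of -1.86. MMP16 was at -1.18 and MMP2, a gelatinase, at -0.65. CTSK, a collagenolytic cathepsin, was at 1.08 and MMP15 at 0.29. TIMP2 was at 0.21, lost without CAG replicate 3 or PGK replicate 1 (edgeR, adjusted p = 0.0999 and 0.0502). The TGF-beta pathway, a main driver of collagen genes in fibroblasts, had 5 of 16 higher (31.2%), 4 lower (25%) and a median of 0.03, beside 31.6% and 30.4% of all tested genes. LTBP2 at 0.79, LTBP4 at 0.33 and SMAD3 at 0.31 were higher in CAG, and SKI at -0.51, TGFB3 at -0.40 and TGFB1 at -0.34 were lower. SKI stood beside a neighbourhood median of -0.63, and LTBP4, SMAD3 and TGFB1 each beside one of 0.33. The TGFB3 call was lost without CAG replicate 2 or 3 (edgeR, adjusted p = 0.0773 and 0.0551) and in DESeq2 (adjusted p = 0.0620). Of the named list genes, ADAMTS3, DDR1, HSPG2, LOX, LOXL1, LOXL2, LOXL3, LTBP2, MMP16, MMP2, MRC2, NID2, SMAD3, SPARC, TGFB1, TGFB3, TIMP2, TNC and TNXB share exonic bases with another gene, so their counts are uncertain to that extent.

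**Figure D4:**
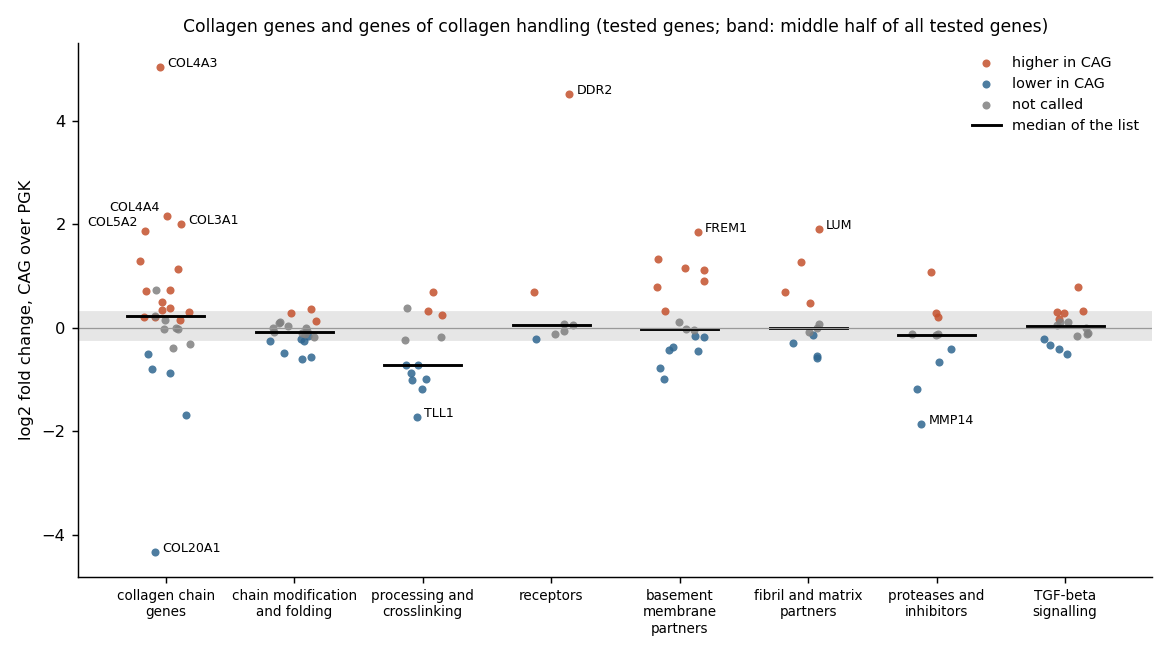
Log2 fold change of CAG over PGK for each tested collagen gene and for 7 lists of genes that handle collagen, with the median of each list as a black bar and the range between the quartiles of all tested genes, -0.24 to 0.30, as a grey band. The collagen median of 0.23 and the processing and crosslinking median of -0.72 lie on opposite sides of 0.

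Marker genes of other cell types, among them makers of collagen, were read in both lines. Calls among them stand beside 62.0% of all tested genes called, 31.6% higher and 30.4% lower in CAG. Summed fibroblast markers ran from 19.4 to 21.6 CPM in CAG and from 17.8 to 21.5 CPM in PGK. TWIST1 made up most of that sum, at 12.9 ± 0.48 CPM in CAG and 14.4 ± 0.61 CPM in PGK. Of 4 tested, PDGFRA and LUM were higher, while TWIST1 and TWIST2 were not called (log2 fold change -0.16 and -0.01). The other 6, with FAP at 0, had under 1 CPM in every library. Chondrocyte markers summed to 16.3 to 19.6 CPM in CAG and 14.5 to 14.7 CPM in PGK. SOX9 made up most of this, at 13.2 ± 1.42 CPM in CAG and 9.93 ± 0.16 CPM in PGK. ACAN, SOX9 and SNORC were higher, COMP was lower, MATN1 and MATN3 were not called and HAPLN1 was at 0. All 5 endothelial markers had under 1 CPM in every library. Renal epithelial markers summed to 65.9 to 73.2 CPM in CAG and 53.6 to 58.1 CPM in PGK. KRT18 carried most of this, at 57.1 ± 3.90 CPM in CAG and 52.2 ± 3.04 CPM in PGK, and was not called. CDH1, EPCAM and KRT8 were higher in CAG, PAX2 was not called, and PAX8 and CDH16 were near 0 in both lines. Neuronal markers summed to 85.5 to 89.0 CPM in CAG and 78.8 to 84.8 CPM in PGK. Nearly all of this came from the 3 tested ones, as the other 5 had under 1 CPM in every library. The 3 tested ones were all called in edgeR in different directions. NEFM was at 0.0853 ± 0.073 CPM in CAG and 18.8 ± 1.23 CPM in PGK (log2 fold change -7.69), INA at 45.8 ± 0.45 CPM in CAG and 10.5 ± 0.55 CPM in PGK (2.13), and SYP at 40.8 ± 1.52 CPM in CAG and 51.9 ± 2.196 CPM in PGK (-0.35; SD, n = 3 each). CDH1, FAP, KRT8, KRT18, MATN1, NEFM, PAX8, PDGFRA, SNORC, SYP and TWIST1 share exonic bases with another gene. The part of these markers in the collagen differences was not tested.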

How the data were processed

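The deposited table gave raw gene counts, whole numbers per gene and library; cutadapt 4.6, Bowtie2 2.5.1, HISAT2 2.2.1, featureCounts 2.0.3 and hg19 are named per the submitters' processing notes, without their roles or the strand setting. GENCODE 29 supplied symbols for 19346 of 20169 rows, gene order, overlaps and the length of the transcript with the longest coding sequence. Since it is built on GRCh38, no coordinates were taken from it. RefSeq promoter windows (GRCh38.p14) supplied sequences.

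Counts were fitted in edgeR 4.0.16 (R 4.3.3) with filterByExpr, TMM and robust quasi-likelihood dispersion on all 6 libraries; the biological coefficient of variation was 0.0494. On simulated counts of 13103 genes, 58% of 1.25-fold, 84% of 1.5-fold and 98% of 2-fold changes were recovered. Alternatives used limma 3.58.1, DESeq2 1.42.0, other scalings and filters, each library left out and a replicate block. The collagen genes and lists were chosen with earlier results of these data known. In the other lists, up to 3 called genes per direction were named, by absolute fold change, among those without overlap between lines and with a mean of at least 1 CPM; 1 gene that this rule names is not reported here. P3H3, PECAM1, LHX1 and NEFL were not analysed here. Depth was 21896246 to 23442542 counts per library, and intervals and floors cover counting error only.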

Additional observations from a re-analysis of the deposited data

How the results depend on the processing

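Collagen genes called higher numbered 14 to 20 and lower 4 to 6 over the alternatives, against 15 and 5. Taking the neighbourhood median as baseline put COL4A2 at -0.21 and COL7A1 at -0.20, the only called collagen genes whose sign turned. Genes near 0 changed sign: with library size only COL6A1 was at 0.0088 and COL25A1 at 0.015, and COL9A3 was at -0.0044 without the filter on low counts, -0.0015 under RLE scaling, -0.0057 in DESeq2 and -0.0064 in limma-voom. Leaving out each library gave -0.069 to 0.031 for COL6A1, -0.063 to 0.12 for COL9A3 and -0.072 to 0.047 for COL25A1. DESeq2 called 1 folding gene higher and 2 fibril partners lower, where leaving out each library gave 1 to 3 and 2 to 4. With no filter 4 receptors were higher, and with a replicate block 7 degradation genes were lower; the cause was not tested. Deviations from the line mean correlated between same-numbered libraries at 0.108, 0.103 and 0.0131. Libraries with different numbers were not compared, so whether the numbers mark a pairing was not tested. The main fit used no pairing. The block called 8861 genes in all, against 8125. COL21A1 was called with it (edgeR, adjusted p = 0.0442) and in limma-voom (0.0443). COL7A1 was not called with RLE size factors (edgeR, adjusted p = 0.0521), DESeq2 (0.134) or limma-voom (0.0519). COL4A3, COL20A1, COL12A1, COL19A1 and COL21A1 had too few counts for the stricter filter. Few counts limit COL4A3, COL20A1 and the untested genes most.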
